A study of Mus musculus with 9 samples.

Results

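Ccn1, Ccn2, Ankrd1, Amotl1, Amotl2 and Lats2 are target genes of the transcriptional co-activators YAP and TAZ, and their RNA was followed in mouse mesenchymal stromal cells kept with peritoneal fluid. The 6 genes were chosen by name among the 21959 genes of the deposited table, and each matched 1 row. They were chosen with results of these libraries in view, so their levels are given as a description with no p-value, and where the fit over all genes called one of them, that is given only beside the share of all genes called. All 6 passed the filter on low values, an FPKM of 1 or more in 3 or more libraries, which left 10537 genes for the fit over all genes. FPKM is the number of fragments scaled to gene length and to the assigned fragments of the library, so levels of different genes can be compared per length.

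The RNA came from stromal cells of mouse bone marrow, a line that the labels mark SV40, a virus whose genes are commonly used to immortalise cells. All cells were grown with 10% serum, which itself is known to activate YAP, and were kept for 24 h with 1 of 3 additions. The 3 control PF libraries received peritoneal interstitial fluid of control mice, the 3 TNBS PF libraries received that of mice given TNBS, a hapten used to induce colitis, for 3 days, and the 3 PBS libraries received phosphate-buffered saline. The strain, age and number of the fluid donors, whether fluids were pooled, and whether the line is 1 clone are not stated in the sources used here.

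YAP and TAZ carry no DNA-binding domain of their own and act on genes mainly through the TEAD transcription factors. The Hippo kinases LATS1 and LATS2 phosphorylate YAP and TAZ and keep them in the cytoplasm, while cell spreading, actin tension and several G protein-coupled receptor ligands release them into the nucleus. Several targets feed back on the pathway: LATS2 and the motin proteins AMOTL1 and AMOTL2 restrain YAP. Other targets, among them the secreted CCN proteins, act outside the cell, and in stromal cells they are known for roles in matrix remodelling and fibrosis.

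The promoters of these genes are shown because TEAD factors bind DNA at a short motif, GGAATG or its reverse complement CATTCC. RefSeq promoter windows of build GRCm38.p6, from 250 bases before to 50 bases after the start site, matched 5 of the 6 genes (all but Ccn2). A TEAD motif was found on either strand in at least 1 window of 4 of these 5. The 4 windows that hold it are printed 5′ to 3′ along the gene's strand, with the motif in capitals. They lie at chr3:145649936-145650235 on the minus strand for Ccn1, at chr19:36119795-36120094 on the minus strand for Ankrd1, at chr9:102717554-102717853 on the plus strand for Amotl2 and at chr14:57746074-57746373 on the minus strand for Lats2.
Ccn1: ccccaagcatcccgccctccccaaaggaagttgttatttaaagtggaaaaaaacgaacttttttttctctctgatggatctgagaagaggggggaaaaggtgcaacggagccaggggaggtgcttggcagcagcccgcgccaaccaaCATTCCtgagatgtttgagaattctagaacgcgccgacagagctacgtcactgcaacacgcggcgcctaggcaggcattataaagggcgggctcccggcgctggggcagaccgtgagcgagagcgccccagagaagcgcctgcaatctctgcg
Ankrd1: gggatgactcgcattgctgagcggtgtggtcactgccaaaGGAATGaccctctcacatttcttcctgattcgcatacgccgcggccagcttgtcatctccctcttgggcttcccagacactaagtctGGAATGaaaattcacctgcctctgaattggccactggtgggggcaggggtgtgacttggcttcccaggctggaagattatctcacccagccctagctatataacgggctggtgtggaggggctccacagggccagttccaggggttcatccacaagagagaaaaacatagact
Amotl2: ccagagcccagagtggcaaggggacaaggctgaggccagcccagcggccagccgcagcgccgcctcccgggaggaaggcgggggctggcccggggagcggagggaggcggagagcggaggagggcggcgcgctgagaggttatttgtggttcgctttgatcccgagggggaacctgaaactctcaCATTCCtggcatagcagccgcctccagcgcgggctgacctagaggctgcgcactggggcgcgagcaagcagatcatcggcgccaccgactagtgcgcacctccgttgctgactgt
Lats2: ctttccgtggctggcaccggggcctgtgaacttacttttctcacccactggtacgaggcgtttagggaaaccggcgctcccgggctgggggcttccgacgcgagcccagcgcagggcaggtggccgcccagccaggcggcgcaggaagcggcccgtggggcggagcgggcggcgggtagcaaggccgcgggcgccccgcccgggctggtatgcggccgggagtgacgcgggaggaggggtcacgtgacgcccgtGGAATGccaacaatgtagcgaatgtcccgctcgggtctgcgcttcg
The match began 103 bases before the start site in Ccn1 and 65 bases before it in Amotl2. Ankrd1 held 2 matches, at 210 and 123 bases before the start site, and the match of Lats2 lay 4 bases after it. The window of Amotl1 at chr9:14614951-14615250 and a second window of Lats2 at chr14:57734369-57734668 held none. Of all 32851 windows of this length, 14.7% held the motif, as did 16.6% of 27025 genes in at least 1 window. No window of these genes held the AP-1 motif TGANTCA, which 7.81% of all windows held, or a CArG box, the motif of SRF, which 1.63% held, and no match overlapped another motif. A match describes letters in this window and is not a bound site.

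Ccn2 (ENSMUSG00000019997, GRCm38 chromosome 10, 24595442 to 24598683, plus strand) encodes a matricellular protein, known as connective tissue growth factor, that is widely used as a readout of YAP activity. Its FPKM was 19.0, 17.8 and 19.5 in the control PF libraries, 38.3, 39.2 and 37.3 in the TNBS PF libraries, and 24.1, 22.7 and 25.4 in the PBS libraries. All TNBS PF libraries were highest, all control PF libraries lowest, and no group overlapped another. The mean FPKM was 38.3 ± 0.918 (SD, n = 3) with TNBS PF, 24.1 ± 1.33 (SD, n = 3) with PBS and 18.8 ± 0.874 (SD, n = 3) with control PF. The TNBS PF mean was 2.04 times the control PF mean and 1.59 times the PBS mean. The control PF mean was 0.779 times the PBS mean, so the control fluid stood on the other side of PBS from the TNBS fluid. On the log2(FPKM + 1) scale the differences were 0.99 for TNBS PF minus control PF, 0.65 for TNBS PF minus PBS and -0.34 for control PF minus PBS, each with a standard error of 0.0447. The first was the highest difference of the 10537 genes fitted.

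Ccn1 (ENSMUSG00000028195, chromosome 3, 145646976 to 145649981, minus strand), known as Cyr61, encodes a secreted matricellular protein that binds integrins and was the most abundant of the 6. Its FPKM was 130.8, 132.6 and 137.0 with control PF, 201.1, 202.3 and 209.5 with TNBS PF, and 138.2, 137.6 and 142.9 with PBS. The TNBS PF libraries stood far above the other 6. Control PF and PBS did not overlap either, but their nearest libraries were 137.0 and 137.6. The mean FPKM was 204.3 ± 4.53 (SD, n = 3) with TNBS PF, 139.6 ± 2.92 (SD, n = 3) with PBS and 133.4 ± 3.2 (SD, n = 3) with control PF. The TNBS PF mean was 1.53 times that of control PF and 1.46 times that of PBS. The log2 differences were 0.61 against control PF and 0.55 against PBS, and -0.06 for control PF minus PBS, each with a standard error of 0.0297. The first ranked 8 from the highest of the genes fitted.

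Both CCN genes were highest with TNBS PF, but not in the same proportion. Ccn1 FPKM over Ccn2 FPKM was 6.87, 7.46 and 7.04 in the control PF libraries, 5.25, 5.16 and 5.61 in the TNBS PF libraries, and 5.73, 6.05 and 5.63 in the PBS libraries. The ratio was lowest with TNBS PF and highest with control PF. No group overlapped another, but the nearest TNBS PF and PBS libraries were 5.61 and 5.63.

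Ankrd1 (ENSMUSG00000024803, chromosome 19, 36111961 to 36120099, minus strand) encodes an ankyrin repeat protein of muscle sarcomeres and nuclei. Its FPKM was 35.6, 36.2 and 37.6 with control PF, 51.5, 52.9 and 51.4 with TNBS PF, and 32.9, 32.7 and 34.3 with PBS. TNBS PF was again highest in every library, but here PBS was lowest and control PF lay between, with no overlap. The mean FPKM was 51.9 ± 0.866 (SD, n = 3) with TNBS PF, 36.4 ± 1.04 (SD, n = 3) with control PF and 33.3 ± 0.856 (SD, n = 3) with PBS. The TNBS PF mean was 1.43 times the control PF mean and 1.56 times the PBS mean. The log2 differences were 0.50 and 0.63, and 0.13 for control PF minus PBS, each with a standard error of 0.0328.

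Amotl2 (ENSMUSG00000032531, chromosome 9, 102716672 to 102733418, plus strand) encodes a motin, a scaffold at cell junctions that holds YAP in the cytoplasm. Its FPKM was 35.5, 37.6 and 38.5 with control PF, 38.5, 39.9 and 40.6 with TNBS PF, and 37.0, 34.2 and 35.8 with PBS. TNBS PF overlapped control PF at its lowest library and lay above all PBS libraries. The mean FPKM was 39.6 ± 1.07 (SD, n = 3) with TNBS PF, 37.2 ± 1.5 (SD, n = 3) with control PF and 35.7 ± 1.39 (SD, n = 3) with PBS. The log2 difference was 0.09 against control PF and 0.15 against PBS, each with a standard error of 0.0391. The fit over all genes called the second, and that call was lost without TNBS PF library 2 or 3, where the log2 difference was 0.14 and 0.13, without PBS library 2, where it was 0.12, and with TPM scaling, where it was 0.13.

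Amotl1 (ENSMUSG00000013076, chromosome 9, 14541966 to 14645056, minus strand) encodes a second motin of the same family. Its FPKM was 15.8, 16.0 and 16.6 with control PF, 16.3, 15.5 and 15.9 with TNBS PF, and 16.9, 15.0 and 15.8 with PBS. All 3 groups overlapped, with means of 16.1 ± 0.45 (SD, n = 3), 15.9 ± 0.404 (SD, n = 3) and 15.9 ± 0.955 (SD, n = 3). The log2 difference was -0.02 against control PF and 0.00 against PBS, each with a standard error of 0.0448. Amotl2 FPKM over Amotl1 FPKM was 2.36, 2.58 and 2.55 with TNBS PF, 2.25, 2.35 and 2.31 with control PF, and 2.19, 2.28 and 2.26 with PBS. The TNBS PF ratios were above those of the other 6 libraries, but the nearest TNBS PF and control PF libraries were 2.36 and 2.35.

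Lats2 (ENSMUSG00000021959, chromosome 14, 57689662 to 57758388, minus strand) encodes the Hippo kinase that inactivates YAP and TAZ, and had the lowest level of the 6. Its FPKM was 4.06, 4.47 and 5.24 with control PF, 5.11, 5.16 and 5.21 with TNBS PF, and 5.05, 4.79 and 4.48 with PBS. The highest control PF library stood above every TNBS PF library, and the TNBS PF libraries stood above all PBS libraries. The mean FPKM was 5.16 ± 0.0495 (SD, n = 3) with TNBS PF, 4.59 ± 0.597 (SD, n = 3) with control PF and 4.77 ± 0.288 (SD, n = 3) with PBS. The coefficient of variation was 13.0% with control PF and 0.96% with TNBS PF. Each rests on 3 libraries, so nothing is read from the difference in spread. The log2 difference was 0.15 against control PF and 0.10 against PBS, each with a standard error of 0.0709. The difference against control PF was 0.23 without control PF library 3 and 0.08 without control PF library 1.

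**Figure D1:**
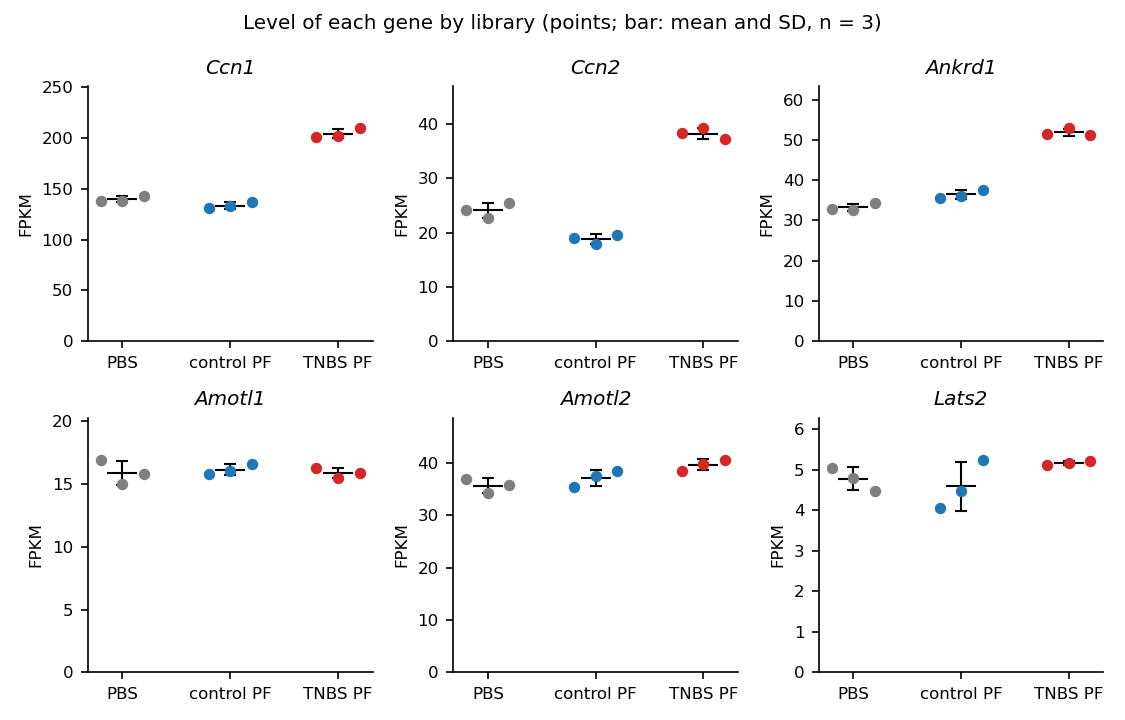
FPKM of the 6 genes in each library (points), with the mean and SD of each group of 3 as bars and each axis starting at 0. The TNBS PF points of Ccn1, Ccn2 and Ankrd1 lie above all other points, at 201.1 to 209.5, 37.3 to 39.2 and 51.4 to 52.9, while the Amotl1 points of all groups lie between 15.0 and 16.9.

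By level per length the order with TNBS PF was Ccn1, Ankrd1, Amotl2, Ccn2, Amotl1 and Lats2, and Amotl2 and Ccn2 were neighbours whose libraries overlapped, at 38.5 to 40.6 and 37.3 to 39.2 FPKM. With control PF and with PBS, Ccn2 lay well under Amotl2, and Ankrd1 and Amotl2 were the neighbours nearest to each other. Over all 9 libraries the mean FPKM of Ccn1 ranked 216 of 10537 and that of Lats2 ranked 7176. The precision rests on 4978 to 10454 fragments per library for Ccn1, 946 to 2869 for Ccn2 and 562 to 921 for Lats2, recovered from FPKM and exon length.

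In the fit over all genes, 3 of the 6 (Ccn1, Ccn2 and Ankrd1) were called between TNBS PF and control PF, where 10.6% of the genes fitted were called, 5.15% higher and 5.45% lower. The groups did not overlap in the same 3 genes, against 31.8% of genes, 13.6% higher and 18.2% lower. Between control PF and PBS 1 of the 6 (Ccn2) was called, against 2.15% of genes, 1.02% higher and 1.14% lower. Here 3 did not overlap, against 18.6%, 9.33% higher and 9.32% lower. Between TNBS PF and PBS 4 of the 6 were called, against 16.7%, 7.8% higher and 8.88% lower. Here 5 did not overlap, against 35.3%, 15.5% higher and 19.7% lower. The 3 comparisons share their libraries and the genes were chosen with these contrasts in view, so nothing is read from these counts. The median log2 difference over the 6 was 0.32, -0.02 and 0.35 in the 3 comparisons, and over all genes fitted -0.01, 0.00 and -0.01. In the authors' deposited table, Ccn2 had a log2 fold change of 1.048 between TNBS PF and control PF and was among 24 genes called up. In the authors' deposited table, Ccn1 had 0.633 and Ankrd1 0.53 in that comparison, neither called.

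**Figure D2:**
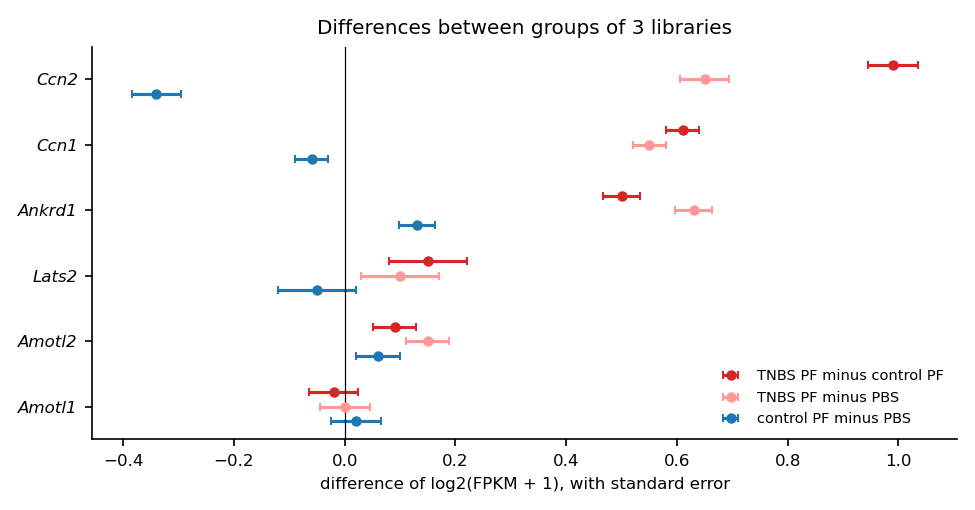
Difference of log2(FPKM + 1) between groups of 3 libraries for each gene, with standard errors as bars. TNBS PF minus control PF runs from 0.99 for Ccn2 to -0.02 for Amotl1, and control PF minus PBS is lowest for Ccn2, at -0.34.

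Depth was between 17.9 and 25.6 M assigned fragments and was higher in the TNBS PF libraries (22.9 to 25.6 M) than in the other 6 (17.9 to 21.5 M). FPKM is scaled to depth, and the part of depth in the differences was not tested. Reads of Ccn2 can be shared with the antisense gene Gm15270, which covers 23.2% of its exon bases, and those of Lats2 with Gm49361 on the same strand, which covers 42.4% and is listed at 0. The sources used here do not state whether the libraries keep strand, so Ccn2 and its antisense partner cannot be told apart where they overlap.

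The cell identity was checked on marker genes. The summed FPKM of 13 stromal markers was 1519.3 to 1544.4 with TNBS PF, 1596.1 to 1615.4 with control PF and 1617.3 to 1684.0 with PBS, so it was lowest where Ccn1, Ccn2 and Ankrd1 were highest. Of 12 fitted stromal markers 2 were called higher and 4 lower between TNBS PF and control PF, 50.0% against 10.6% of all genes, and their part in the members' levels was not tested. Lepr, a marker of marrow stroma, was at most 0.0907. Markers of mesothelium, which lines the cavity the fluid came from, summed to 52.7 to 58.0 FPKM over 14 genes with TNBS PF, 46.2 to 47.7 with control PF and 47.9 to 48.6 with PBS. Most of that sum was Msln, at 42.2 ± 2.92, 35.6 ± 0.494 and 38.1 ± 1.15 FPKM (SD, n = 3), while 10 of the 14 had means under 1, Muc16 was at 0 and Upk3b at most 0.0395. Msln rose between TNBS PF and control PF by 0.24 (limma adjusted p = 0.0043). Of 4 fitted mesothelial markers 3 were called higher and none lower in that comparison, 75.0% against 10.6% of all genes. Krt19 was at 5.79 ± 1.07 against 3.5 ± 0.645 FPKM and Krt18 at 2.36 ± 0.0945 against 1.77 ± 0.355 (SD, n = 3). Their calls held in 12 and 4 of 17 alternatives. Slpi went the other way, at 4.94 ± 0.563 against 6.04 ± 0.363 FPKM (SD, n = 3), and was not called. The mesothelial sum was thus highest with TNBS PF, as Ccn1, Ccn2 and Ankrd1 were, and its part in their levels was not tested. Between control PF and PBS the sum was lower with control PF. There Ccn2 was also lower with control PF, at 18.8 against 24.1 FPKM, and Ccn1, at 133.4 against 139.6. Ankrd1 was higher with control PF, at 36.4 against 33.3 FPKM. Macrophage markers summed to 1.69 to 2.65 FPKM over 10 genes, with C1qa, C1qb, Timd4 and Ccr2 at 0 and Ptprc, the leukocyte marker CD45, at most 0.00306. Sums were at most 0.269 for neutrophil, 0.111 for lymphoid, 0.233 for erythroid, 0.294 for endothelial and 1.1 for intestinal epithelial markers. In bulk RNA, fewer cells of a type and less RNA per cell cannot be told apart.

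Unlike Ccn1 and Ccn2, the other CCN genes were not highest with TNBS PF. Of 4 genes 3 were fitted, and between TNBS PF and control PF none was called higher and 1 lower, 33.3% against 10.6% of all genes. Ccn5, which lacks the C-terminal domain of other CCN proteins, was at 0.994, 0.691 and 0.952 FPKM with TNBS PF, 1.73, 1.17 and 1.88 with control PF, and 2.5, 2.11 and 2.61 with PBS. The groups did not overlap, and TNBS PF, the group in which Ccn1 and Ccn2 were highest, was lowest. Ccn5 fell by 0.46 on the log2 scale against control PF (limma adjusted p = 0.0151), a call that was lost without control PF library 1 or 3 (0.0575 and 0.0682), without TNBS PF library 2 (0.0693) and with no filter (0.0628). Against PBS it fell by 0.86 (limma adjusted p = 0.000175, and 0.0038 with no filter). Ccn5 was under 1 FPKM in all TNBS PF libraries and passed the filter only through control PF and PBS, the groups where it was high, which favoured a fall with TNBS PF. Ccn3, a growth-inhibiting member, was at 2.03 ± 0.0709 FPKM with TNBS PF, 1.96 ± 0.0823 with control PF and 2.96 ± 0.171 with PBS (SD, n = 3). Ccn3 fell by 0.42 with control PF and by 0.38 with TNBS PF against PBS (limma adjusted p = 0.00321 and 0.000979). Ccn2 also lay lower with control PF than with PBS, with a log2 difference of -0.34. Ccn4, a Wnt-induced member, was at 19.2 ± 0.575, 20.5 ± 0.346 and 21.5 ± 0.656 FPKM in TNBS PF, control PF and PBS, and fell by 0.16 against PBS with TNBS PF (limma adjusted p = 0.0106), a call lost without TNBS PF library 3 (0.0512). Ccn6 was under the filter.

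**Figure D3:**
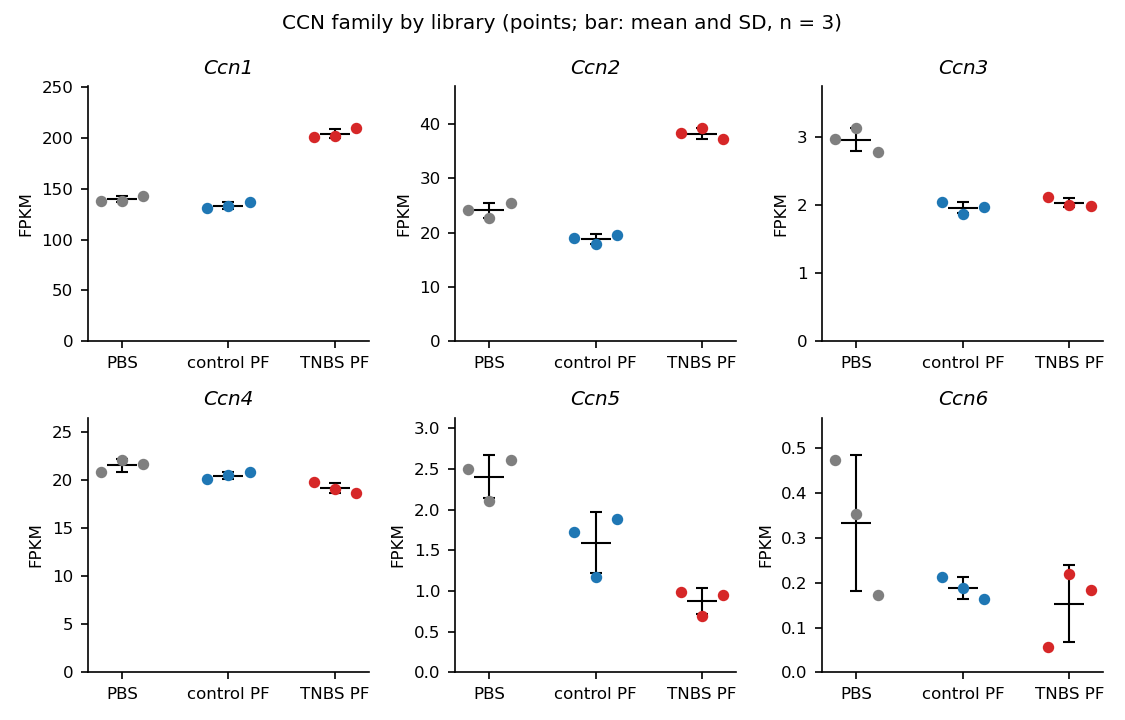
FPKM of the 6 CCN genes in each library (points), with mean and SD of each group of 3 as bars and axes from 0. Ccn1 and Ccn2 are highest with TNBS PF, while Ccn5 is lowest there, at 0.691 to 0.994 FPKM.

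RNA of the co-activators themselves passed the test in none of the 3 comparisons. Yap1 had 18.3 ± 0.394 FPKM with TNBS PF, 18.5 ± 0.417 with control PF and 18.7 ± 0.321 with PBS (SD, n = 3), and its log2 difference of -0.01 between TNBS PF and control PF did not pass the test (limma adjusted p = 0.894, standard error 0.035). Wwtr1, which encodes TAZ, had 49.9 ± 0.684, 50.5 ± 1.06 and 52.0 ± 0.845 FPKM in the same order (log2 difference -0.02, standard error 0.0293, limma adjusted p = 0.786). Wwtr1 FPKM over Yap1 FPKM was 2.7 to 2.81 in all 9 libraries. Of the 8 YAP, TAZ, TEAD and VGLL genes fitted, 2 were called higher and 1 lower between TNBS PF and control PF, 37.5% against 10.6% of all genes. Vgll3, a TEAD cofactor, rose from 33.4 ± 0.733 to 40.5 ± 1.04 FPKM (SD, n = 3; log2 difference 0.27, limma adjusted p = 0.00189). Vgll4, which competes with YAP for TEAD, fell by 0.23 (limma adjusted p = 0.0133), a call lost without TNBS PF library 2 (0.0646). Tead4 rose by 0.29 (limma adjusted p = 0.0229), a call lost without control PF library 1 or 2 (0.0585 and 0.0909), without TNBS PF library 1 or 3 (0.0954 and 0.0638) and with no filter (0.0606). Tead1, Tead2 and Tead3 were at 12.4, 21.6 and 4.15 FPKM with TNBS PF and 11.6, 22.6 and 4.18 with control PF, and did not pass the test in that comparison. Between control PF and PBS 1 of the 8 was called higher and none lower, 12.5% against 2.15% of all genes. This was Tead2, at 22.6 ± 0.52 against 20.1 ± 0.694 FPKM (SD, n = 3; 0.17, limma adjusted p = 0.0347). The call held in 7 of 17 alternatives. RNA levels do not report where YAP and TAZ lie in the cell or their phosphorylation.

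**Figure D4:**
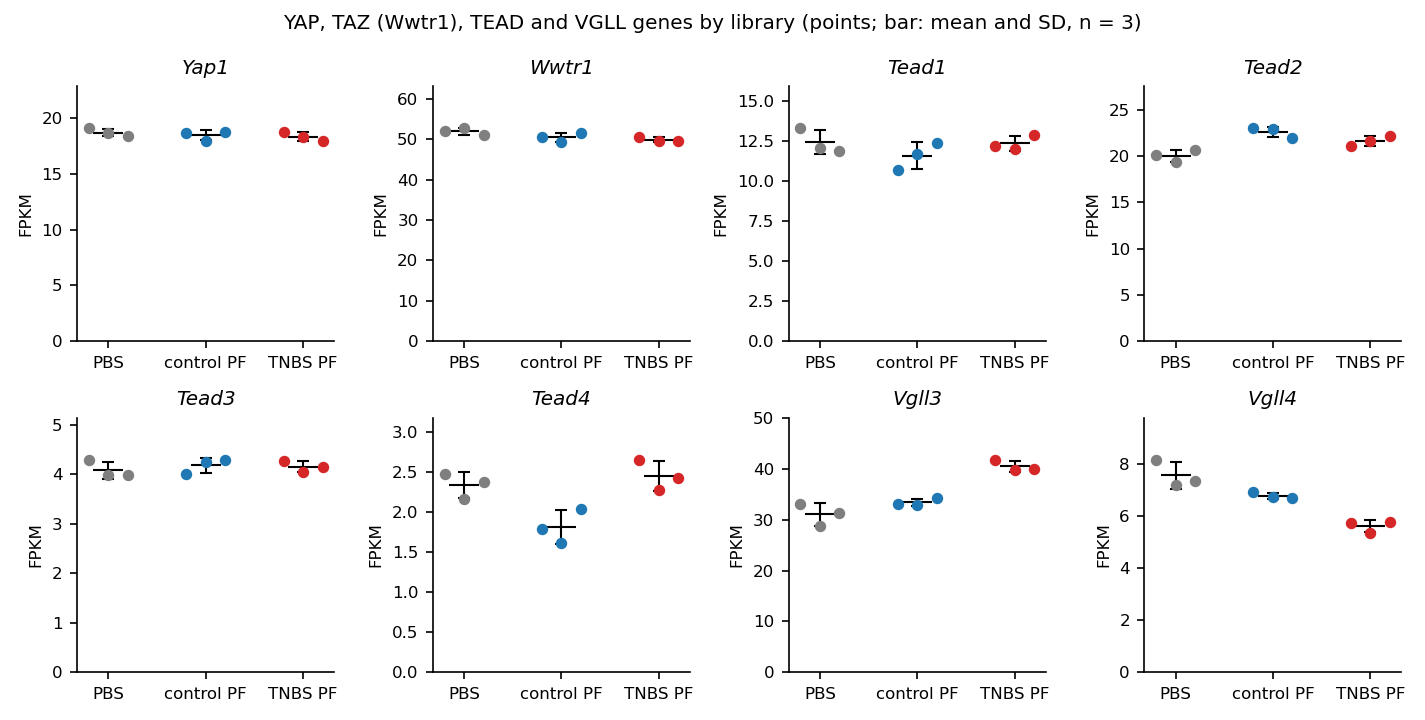
FPKM of Yap1, Wwtr1, the TEAD genes, Vgll3 and Vgll4 in each library (points), with mean and SD of each group of 3 as bars and axes from 0. Yap1 lies between 18.0 and 19.1 FPKM in all libraries, while Vgll3 is highest and Vgll4 lowest with TNBS PF.

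Of 25 fitted Hippo kinases, scaffolds and regulators, 2 were called higher and 1 lower between TNBS PF and control PF, a share of 12.0% against 10.6% of all genes, and none between control PF and PBS. Wwc1, which encodes the scaffold KIBRA, rose from 2.77 ± 0.248 to 3.72 ± 0.107 FPKM (SD, n = 3; 0.33, limma adjusted p = 0.00528). Ajuba, a LIM protein that binds and inhibits LATS kinases, rose by 0.30 (limma adjusted p = 0.002). Lats1, the other kinase of the Lats2 pair, was at 19.6 ± 0.515 FPKM with TNBS PF and 19.4 ± 1.15 with control PF (SD, n = 3) and did not pass the test (0.02, limma adjusted p = 0.864). Amot, the remaining motin, was called lower, by -0.24 (limma adjusted p = 0.0372), and that call was lost in 7 of 17 alternatives, with an adjusted p of up to 0.132.

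A published YAP and TAZ target signature from human tumours, listed here from memory, holds 17 further genes, of which 16 were fitted. Between TNBS PF and control PF 4 were called higher and none lower, 25.0% against 10.6% of all genes, with a median log2 difference of 0.05 against -0.01. The 4 higher calls held in all 17 alternatives, but the count of lower genes did not stay at none. With pseudocount 0.1, TPM scaling or quantile normalization 1 was called lower. With only the 2 groups, limma voom on recovered fragments or without PBS library 1, 2 were called lower. F3, which encodes tissue factor, was at 26.8, 29.0 and 29.6 FPKM with TNBS PF, 19.8, 19.7 and 21.0 with control PF, and 24.4, 23.2 and 23.0 with PBS. Like Ccn2, it had PBS between the fluids with no overlap. F3 rose by 0.48 between TNBS PF and control PF (limma adjusted p = 3.24e-05). Gadd45a, a stress-response gene, rose by 0.34 (limma adjusted p = 0.00138), Crim1, a BMP-binding membrane protein, by 0.33 (0.000777), and Axl, a receptor tyrosine kinase, by 0.15 (0.00278). The other 12, among them Tgfb2 (0.15, limma adjusted p = 0.167), did not pass. Between TNBS PF and PBS 6 were called higher and 2 lower, 50.0% against 16.7% of all genes. Igfbp3, a binding protein of insulin-like growth factors, fell from 1.76 ± 0.39 FPKM with PBS to 0.337 ± 0.119 with TNBS PF (SD, n = 3; -1.04, limma adjusted p = 2.93e-05, and 0.00101 with no filter). Igfbp3 reached 1 FPKM only in the PBS libraries and passed the filter through them, which favoured a fall from PBS. Between TNBS PF and control PF, both under 1 FPKM, Igfbp3 was called lower in 7 of 17 alternatives. Between control PF and PBS 1 was called higher and 3 lower, 25.0% against 2.15% of all genes, and without control PF library 1 or 2 the counts were 0 and 1. Without PBS library 1, 1 and 1 were called.

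**Figure D5:**
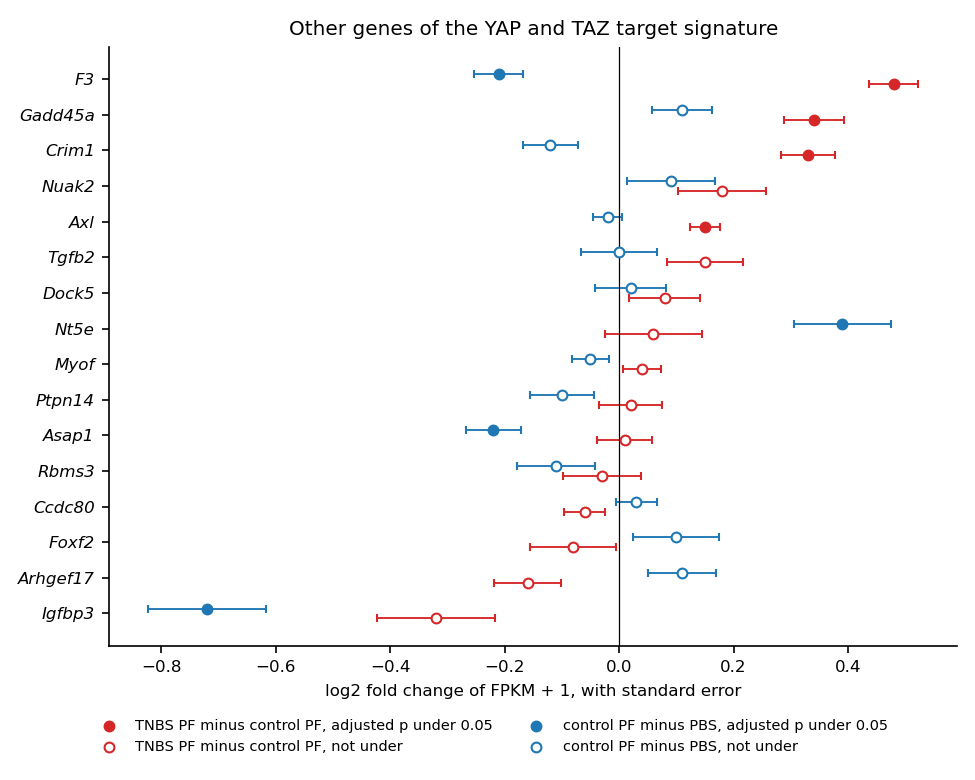
Log2 fold change of FPKM + 1 with standard error for the 16 fitted signature genes other than the members, filled where the adjusted p was under 0.05. F3, Gadd45a, Crim1 and Axl are filled on the right for TNBS PF minus control PF, and F3 lies at -0.21 for control PF minus PBS.

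Genes of SRF and its actin-sensing cofactors MRTF, a pathway that shares targets with YAP, were called higher in 10 of 17 fitted and lower in none between TNBS PF and control PF, 58.8% against 10.6% of all genes. Fhl1, a LIM domain protein, rose by 0.36, Acta2, smooth muscle actin, by 0.25 and Zyx, a focal adhesion protein, by 0.23 (limma adjusted p = 0.000295, 0.0003 and 0.00112). Between TNBS PF and PBS 6 were called higher and 1 lower, 41.2% against 16.7% of all genes, and between control PF and PBS none higher and 2 lower, 11.8% against 2.15%. Fhl1 fell by 0.30 between control PF and PBS (limma adjusted p = 0.00349), and its log2 difference of 0.05 between TNBS PF and PBS did not pass (limma adjusted p = 0.444). Acta2 had its highest level with PBS, 262.5 ± 3.32 FPKM, against 232.1 ± 8.97 with TNBS PF and 194.6 ± 3.93 with control PF (SD, n = 3). Ccn2 is also a known target of TGF-beta, and of 21 other TGF-beta target and pathway genes 2 were called higher and 3 lower between TNBS PF and control PF, 23.8% against 10.6% of all genes. Col3a1 fell by 0.49 and Tgfbi by 0.47 (limma adjusted p = 4.25e-06 and 0.000219). Of 9 fitted receptors of CCN proteins 2 were called higher and 1 lower in that comparison, 33.3% against 10.6% of all genes (1 to 2 and 0 to 2 with 1 library left out), and Itga6, an integrin subunit that binds Ccn1, rose by 0.32 (limma adjusted p = 0.00174).

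Among genes other than the 6, those whose pattern was most like that of Ccn1 were found by the root mean square difference of log2(FPKM + 1), each gene centred on its mean over the 9 libraries. They were Trib3 (0.0493), Ccnd1 (0.0716), Slc7a5 (0.0809), Psph (0.0852) and Slc7a11 (0.0853). Ankrd1, left out of the ranking as 1 of the 6, lay at 0.0813, nearer than Psph and Slc7a11. Trib3 had 12.7 ± 0.431 FPKM with TNBS PF, 7.8 ± 0.0885 with control PF and 8.13 ± 0.442 with PBS (SD, n = 3). For Ccn2 the nearest outside the 6 were Trib3 (0.17), Tmem171 (0.198), Tigit (0.201), Chac1 (0.209) and Slc7a5 (0.211). These lay farther off than those of Ccn1, but the measure also grows with the size of change. Around its own mean, Ccn2 had a root mean square size of 0.414 and Ccn1 of 0.275. The larger distances therefore do not show a less similar pattern. Ccn1 and Ccn2 lay at 0.168 from each other, about as far as Ccn2 and Trib3, and Ccn2 and Ankrd1 at 0.23.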

How the data were processed

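RNA sequencing of 9 libraries was deposited as 1 table of genes. The deposited values are FPKM per library, which the authors computed, per the file headers. Per the submitters' processing notes, reads were trimmed with cutadapt 1.15 and the build was mm10. The sources used here do not state the aligner, the counting program or the library strand. The table's log2 fold changes were computed by the authors, and the p-values deposited beside them come from a test that the sources do not name.

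Genes reaching an FPKM of 1 in 3 or more libraries (10537) were fitted as log2(FPKM + 1) in limma 3.58.1 (R 4.3.3), with all 9 libraries in 1 model and a variance trend. P-values were adjusted by Benjamini-Hochberg over all genes, with a threshold of 0.05. The log2 scale with a pseudocount of 1 understates the change of low genes. The labels do not state that replicates were separate cultures, so p-values measure the spread between these libraries, which may be technical. Depth was recovered from FPKM and GENCODE M21 exon lengths: 97.2 to 97.3% of values under 1000 fragments were whole within 0.01. The procedure was tested on simulated data.

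The members and gene lists were chosen with earlier results of these data known. Named genes are the members, up to 6 called genes of each list and comparison by size of change, preset pathway genes, and the 5 genes nearest in pattern to Ccn1 and to Ccn2. The 17 alternatives comprise another pseudocount, no filter, other scalings, other fits and leaving out each of the 9 libraries. Some genes of the lists and 1 list are not reported here.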

Additional observations from a re-analysis of the deposited data

How the results depend on the processing

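Over the 17 alternatives the log2 difference between TNBS PF and control PF ranged from 0.96 to 1.03 for Ccn2, from 0.58 to 0.63 for Ccn1 and from 0.48 to 0.52 for Ankrd1. With quantile normalization the difference of Ccn1 between TNBS PF and PBS was 0.50. No called difference of a named gene changed sign in these alternatives. Of the small differences between control PF and PBS that were not called, that of Lats2 went from -0.05 to 0.02 without control PF 1 and that of Amotl1 from 0.02 to -0.02 without PBS 2. Counts over all genes moved more. Between TNBS PF and control PF 1117 genes were called, and 661 to 1255 with 1 library left out, of which leaving out library 2 or 3 of control PF gave 733 and 708, and library 1, 2 or 3 of TNBS PF gave 691, 661 and 676. Between control PF and PBS 227 were called, 103 with no filter, 374 with limma voom on recovered fragments, and 115 to 311 with 1 library left out, with 115, 130 and 124 without control PF 1, 2 and 3 and 142 without PBS 3. Between TNBS PF and PBS 1758 were called, and 1148 to 1735 with 1 library left out, the lowest without TNBS PF 3. Scaling moved the split of calls: 543 higher and 574 lower between TNBS PF and control PF became 679 and 440 with median-ratio scaling, and 822 and 936 between TNBS PF and PBS became 1048 and 760, or 606 and 1160 with TPM scaling. Of the signature genes 4 were called between control PF and PBS, 1 with no filter, 2 with only the 2 groups, 2 with the replicate block, and 1 to 4 with 1 library left out. The causes were not tested. Same-numbered libraries did not deviate together (correlations of -0.098 to 0.075 over 9 pairs, against -0.075 to 0.078 over 18 others), so the numbers were not used to pair them. With the replicate block 906, 169 and 1537 genes were called. At 1 fragment in 1 kb, the FPKM was 0.0391 to 0.056, which limits genes at low levels.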

Other observations

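The KEGG annotation in the deposited table was looked at after the values had been seen. Of 156 genes that it places in the Hippo signaling pathway, 106 were fitted, and 14 were called higher and 2 lower between TNBS PF and control PF, 15.1% against 10.6% of all genes, with a median log2 difference of 0.00. These counts include Ccn2. Ccnd1, a cyclin of the G1 phase, rose from 37.9 ± 0.492 to 53.4 ± 0.792 FPKM (SD, n = 3; 0.48, limma adjusted p = 2.47e-06). Ccnd2, another G1 cyclin, rose by 0.24 (limma adjusted p = 0.000984). Myc, a growth-promoting transcription factor, rose from 32.3 ± 0.778 to 40.0 ± 0.759 FPKM (SD, n = 3; 0.30, limma adjusted p = 0.000197). Id1, a BMP target, rose by 0.39 (limma adjusted p = 0.00155). Fzd1, a Wnt receptor, fell by 0.30 (limma adjusted p = 0.00751). The calls of these named genes held in 17 of 17 alternatives. Other calls in the counts did not. Between TNBS PF and control PF, Ywhae held in 6, Ywhag in 7, Ppp2r2a in 8, Amot in 10 and Tead4 in 12 of 17.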
